A study of Mus musculus with 2 samples.

Results

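The 33 genes described here encode collagens, proteins that assemble, coat and crosslink collagen and elastic fibres, and a few markers of the mesenchymal cells that usually make this matrix. They were taken as a list of gene names, and every probe annotated with a RefSeq transcript of a listed gene was used. The arrays carried 41 such probes for 32 of the 33 genes, out of 20653 genes that could be named. No probe was matched to a transcript of Col12a1, which is not analysed here.

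Collagen chains are wound in threes into a triple helix, trimmed outside the cell, assembled into fibrils or networks and then crosslinked by lysyl oxidases. In a mammary tumour this matrix is laid down mainly by fibroblasts and by the pericytes and smooth muscle of vessels, and monocytes and macrophages are better known for degrading and taking up collagen than for making it. Some matrix genes are nonetheless usual in myeloid cells, above all Fn1, which encodes fibronectin.

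RNA came from M-MDSCs, the monocytic CD11b+ Ly6-C+ fraction of myeloid-derived suppressor cells, isolated from tumours of female BABL/c mice that had been injected under the skin with 1000000 cells of the 4T1 mammary carcinoma line. The mice were starved for a day before the injection and then kept for 16 days on a normal-salt diet (NSD), chow of 0.4% NaCl with tap water to drink, or on a high-salt diet (HSD), chow of 4% NaCl with drinking water of 1% NaCl. Both groups carried the tumour, so no tumour-free animal was included, and the labels give no age. Tumours were digested with collagenase before the cells were bound to magnetic beads, and equal numbers of cells were mixed within a diet group. Each diet was therefore represented by 1 pooled RNA on 1 Agilent array, and neither a spread between mice nor a test of the diet was available. In pooled RNA, fewer cells of a type and less RNA per cell cannot be told apart.

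Of 39413 probes, the scanner software called 71.9% (NSD) and 72.4% (HSD) well above background, here also termed detected, and no spot was saturated. The lowest signals so called were 4.61 (NSD) and 4.39 (HSD) intensity units. Itgam, which encodes the CD11b of both monocytic and granulocytic MDSCs, had signals of 31564 (NSD) and 31043 (HSD). Csf1r, the receptor for macrophage colony-stimulating factor, had 11343 and 8112. The monocyte markers Ccr2, with 258.9 and 139.0, and Cd14, with 2337 and 3804, differed in opposite directions. All 8 neutrophil markers with a probe were also well above background on both arrays, Camp with signals of 61817 and 59920 and Ltf with 51766 and 51993, so that the isolated cells carried transcripts of granulocytes as well as of monocytes.

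Most of the matrix genes were dim in these cells. By the brightest probe of each gene, 23 genes were well above background on both arrays, Col6a1 on the HSD array alone, and 8 genes on neither array. Of all 20653 named genes, 15209 were detected on both arrays and 4321 on neither, shares close to those of the list. The 8 genes not detected on either array were Col5a2, Col4a1, Col6a3, Postn, Fbn1, Thbs2, Lum and Pdgfra. Of the 23 genes measured on both arrays, 15 had signals under 50 intensity units on both.

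**Figure D1:**
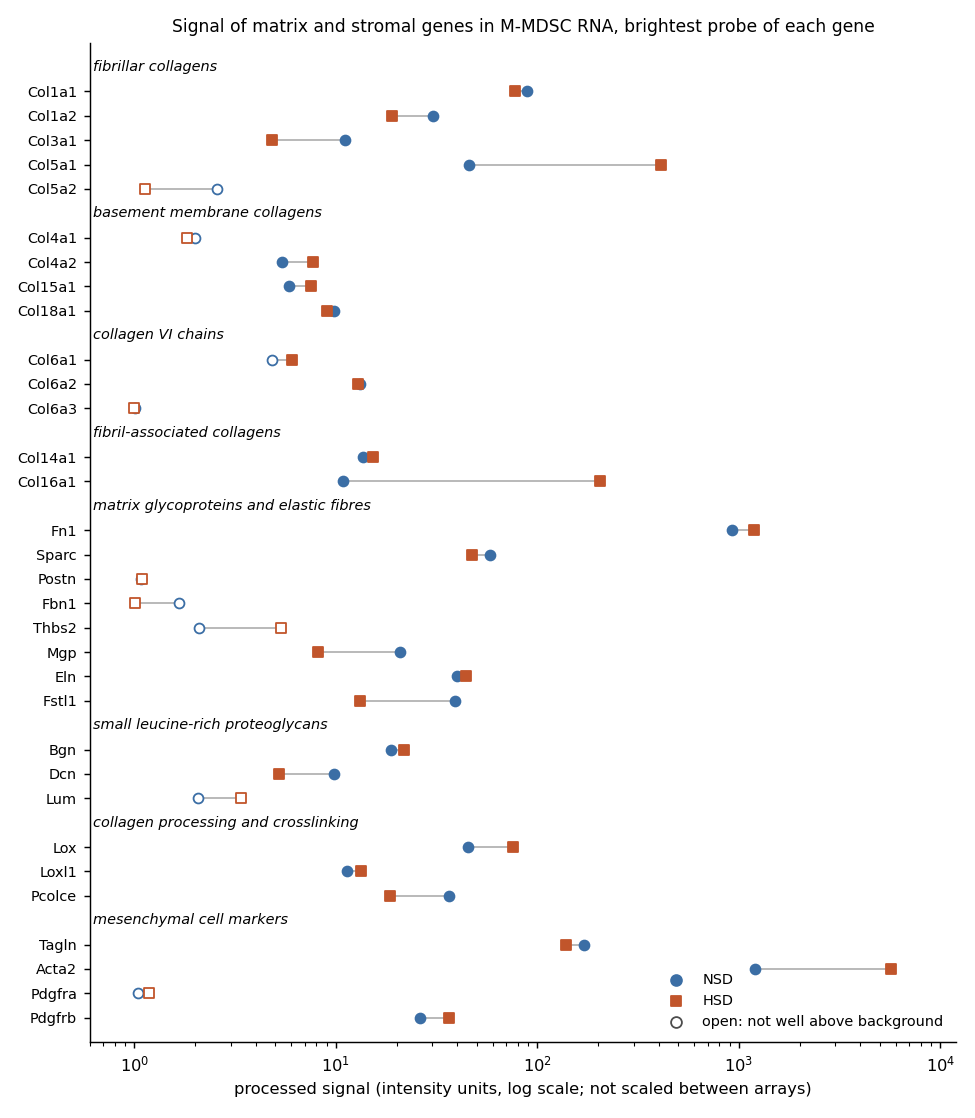
Processed signal in intensity units on a log axis, without scaling between arrays, for the brightest probe of each of the 32 genes with a probe, grouped by role. Circles are the NSD array and squares the HSD array, and open symbols were not well above background. Col5a1, Col16a1 and Acta2 lie far to the right in the HSD group, and 8 genes have open symbols on both arrays.

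The HSD group was compared with the NSD group to see which of these genes differed in M-MDSCs from salt-fed mice. Signals were scaled to the 75th percentile of each array, which added 0.11 on the log2 scale to every HSD-to-NSD difference, and counts took in probes detected on 1 or both arrays with a difference of 1.5-fold or more. By the brightest probe of each gene, 6 genes were higher in the HSD group (Col16a1, Col5a1, Acta2, Lox, Col4a2 and Pdgfrb) and 5 were lower (Fstl1, Mgp, Col3a1, Pcolce and Dcn). The other 13 of the 24 genes with a fold change were under 1.5-fold. Of all genes with a fold change on these arrays, 9.86% passed this limit upward and 10.3% downward. The shares of the matrix genes were larger in both directions, with 25% and 20.8%. Most of the matrix genes were dim, however, and no background matched in signal was computed. The larger shares can therefore not be read as a trait of matrix genes. Past 2-fold, 3 genes were higher and 3 lower, against 2.62% and 4.17% of all genes. The list was split in direction, with 15 genes above and 9 below 0 on the log2 scale. All 16312 genes with a fold change were split as well, with 8849 above and 7463 below 0. The median log2 fold change was 0.27 over the 24 matrix genes and 0.045 over all genes. Without Col16a1, Col5a1 and Acta2, left out here because they had the largest values, the median of the other 21 genes was 0.079 and their log2 fold changes ran from −1.46 to 0.86. Counted by probe, 29 of the 41 probes had a fold change, 8 were higher and 6 lower, against 10.2% and 8.91% of all probes with a fold change.

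Spots of the same probe on the same array gave the only measurement error in these files. Among probes printed in several spots, the median SD between spots was 0.27 on the log2 scale for signals under 10 intensity units, 0.15 from 10 to 50, 0.070 from 50 to 500 and 0.060 above 500. In the dimmest of these groups 19.3% of the pairs of spots of a probe differed by 1.5-fold or more. The share was 4.83% in the next, 0.356% in the third and 0.490% above 500. Of the 11 genes past 1.5-fold, Acta2 alone was printed in several spots, and Col4a2 and Dcn, each with signals under 10 on both arrays, lay in the noisiest range. These errors cover the spots of an array and not mice or cell preparations.

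The fibrillar collagens form the tensile fibres of connective tissue, and they went different ways. Col1a1, which encodes the main chain of type I collagen, had signals of 89.1 (NSD) and 77.2 (HSD) intensity units, and its log2 fold change was −0.092. Its partner chain Col1a2 had 30.3 and 19.1 (log2 fold change −0.55, 1.47-fold lower), just under the 1.5-fold limit. Col3a1, the chain of type III collagen, had 11.1 and 4.81 and was 2.13-fold lower in the HSD group, with its HSD signal close to the limit of detection. The type I and type III chains were thus level or lower in the HSD group. Col5a1 was the exception. It encodes a chain of type V collagen, a minor fibrillar collagen that lies inside type I fibrils and limits their diameter. Its signals were 45.8 (NSD) and 410.1 (HSD), a 9.69-fold higher value with salt (log2 fold change 3.28). Only 9 of the 15209 genes measured on both arrays had a larger positive log2 fold change. Col5a1 had 1 probe in 1 spot, whereas Col5a2, whose product joins the same triple helix, had signals of 2.56 and 1.13 and remained undetected on both arrays. The promoter of Col5a1 is shown because this gene had one of the largest differences in the list. The sequence is the 250 bases before the RefSeq start on the plus strand of GRCm38.p6, chr2:27886175-27886424, 5′ to 3′, with capitals marking the GC box GGGCGG on either strand.
Col5a1: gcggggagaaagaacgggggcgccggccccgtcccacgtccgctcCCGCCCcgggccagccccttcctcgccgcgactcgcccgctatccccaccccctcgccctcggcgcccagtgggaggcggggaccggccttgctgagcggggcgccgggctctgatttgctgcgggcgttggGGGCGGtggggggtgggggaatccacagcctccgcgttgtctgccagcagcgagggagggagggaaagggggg

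The basement membrane collagens form sheets under epithelium and endothelium, and all were near the limit of detection. Col4a1 was printed in 10 spots on each array. On the NSD array 3 of its spots were outliers, the other 7 ran from 1.47 to 3.27 intensity units, and the 10 spots of the HSD array ran from 0.910 to 4.90. None of the spots used was well above background, so no fold change was given. Col4a2, its partner chain, had signals of 5.37 and 7.73, 1.56-fold higher in the HSD group. Col15a1, which encodes a basement-membrane collagen of muscle and vessels, had 5.85 and 7.49 (log2 fold change 0.47) with its brightest probe, and both other probes were undetected. Col18a1 encodes the collagen from which endostatin is cut. Its probes had signals of 9.76 and 9.60 in the NSD group and 9.08 and 7.05 in the HSD group, with log2 fold changes of 0.010 and −0.33, and the first of these turned negative under 4 other scalings or normalizations tried. No basement membrane collagen thus had a signal of 10 or more on either array.

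Type VI collagen forms beaded filaments around cells from 3 different chains. Col6a2 had signals of 13.2 and 12.9 in the NSD and HSD groups (log2 fold change 0.079, or −0.0033 with cyclic loess). Col6a1 was undetected on the NSD array, with 4.81, and had 6.06 on the HSD array, at least 1.36-fold higher. Col6a3 had signals of 1.00 and 0.996 and was undetected. Of these 3 chains, only that of Col6a2 was thus measured on both arrays.

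Col14a1 and Col16a1 encode fibril-associated collagens, which sit on the surface of fibrils and link them to other matrix. Col14a1 had 13.7 and 15.2 with its brighter probe (log2 fold change 0.27), and its second probe was undetected. Col16a1 had the largest difference of the list, and only 2 of the 15209 genes measured on both arrays had a larger positive log2 fold change. Its brightest probe had 10.9 (NSD) and 205.6 (HSD) intensity units, a 20.5-fold higher value with salt (log2 fold change 4.36). Its other probes did not share this size. One had 4.63 and 6.72, 1.57-fold higher, and the third had 4.35, below detection, and 7.64, at least 1.79-fold higher. All 3 probes carry the same transcript identifier, so they differ in size for the same annotated RNA. The promoter of Col16a1 is shown for the same reason as that of Col5a1. It lies on the plus strand of GRCm38.p6, chr4:130047590-130047839, again as the 250 bases before the RefSeq start, with capitals marking GGGCGG and CCAAT on either strand.
Col16a1: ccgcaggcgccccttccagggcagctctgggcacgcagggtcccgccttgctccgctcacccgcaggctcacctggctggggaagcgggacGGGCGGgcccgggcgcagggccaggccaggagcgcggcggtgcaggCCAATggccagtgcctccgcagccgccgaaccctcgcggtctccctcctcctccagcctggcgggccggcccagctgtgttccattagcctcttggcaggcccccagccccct

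**Figure D2:**
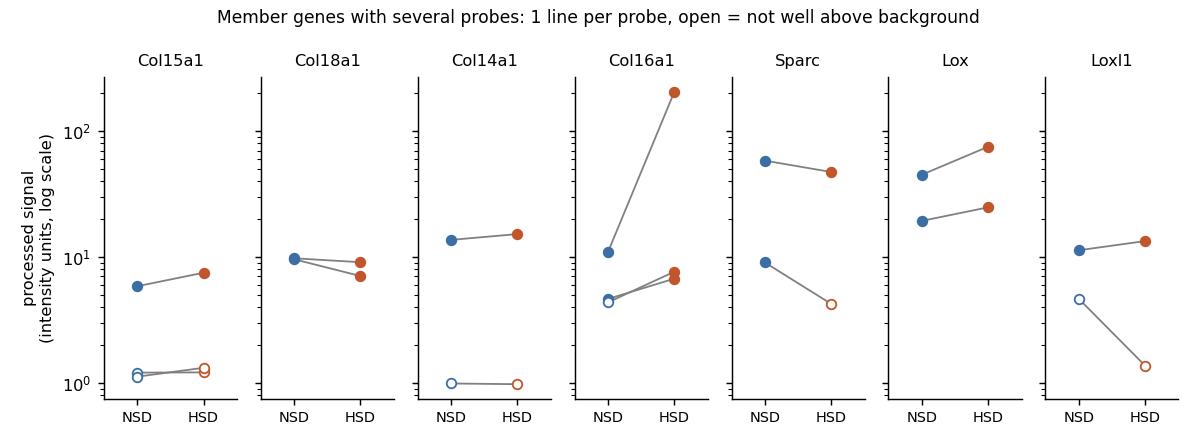
Processed signal in intensity units on a log axis for the 16 probes of the 7 genes with several probes, with 1 line per probe from the NSD to the HSD array. Open symbols were not well above background. The brightest probe of Col16a1 climbs from 10.9 to 205.6, while its other probes stay under 10.

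Among the matrix glycoproteins, Fn1 had signals of 921 (NSD) and 1189 (HSD), with a log2 fold change of 0.48 that was under 1.5-fold. The genes lower in the HSD group were Fstl1, which encodes a secreted follistatin-like glycoprotein, with signals of 39.0 and 13.1 (2.74-fold lower), and Mgp, matrix Gla protein, an inhibitor of calcification, with 20.9 and 8.11 (2.38-fold lower). Fstl1 had the lowest log2 fold change of the list (−1.46), and 226 of the 15209 genes measured on both arrays had a lower one. Sparc encodes a collagen-binding matricellular protein. Its brighter probe had 58.3 and 47.3 (log2 fold change −0.19), whereas the dimmer one had 9.05 (NSD) and was undetected on the HSD array, at least 1.90-fold lower. Eln, which encodes the elastin precursor, had 39.8 and 44.2 (log2 fold change 0.26). Transcripts of the fibroblast product periostin (Postn, 1.08 and 1.09), of the microfibril protein fibrillin-1 (Fbn1, 1.67 and 1.01) and of thrombospondin-2 (Thbs2, 2.08 and 5.32) were not detected. No matrix glycoprotein of the list was thus 1.5-fold higher in the HSD group.

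The small leucine-rich proteoglycans bind collagen fibrils and control their spacing. Bgn (biglycan) had signals of 18.7 (NSD) and 21.9 (HSD) (log2 fold change 0.34). Dcn (decorin), a product typical of fibroblasts, had 9.82 and 5.20 and was 1.75-fold lower in the HSD group. Lum (lumican) had 2.06 and 3.38 and was undetected.

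Of the genes for processing and crosslinking, Lox and Loxl1 encode lysyl oxidases and Pcolce an enhancer of procollagen C-proteinase. The brighter probe of Lox had 45.0 and 75.3, 1.81-fold higher in the HSD group, and the other had 19.3 and 24.8, 1.39-fold higher. Both probes of Lox were thus higher in the HSD group, and one was past 1.5-fold. Loxl1 had 11.3 and 13.4 (log2 fold change 0.36), and its second probe was undetected. Pcolce went the other way, with signals of 36.5 and 18.5, 1.82-fold lower in the HSD group.

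Acta2, which encodes the smooth muscle α-actin of pericytes, smooth muscle and myofibroblasts, was the best measured gene of the list. Its 10 spots on the NSD array had signals from 1114 to 1277 intensity units, with a median of 1203. On the HSD array 1 spot was left out as an outlier, and the other 9 had signals from 5417 to 6063, with a median of 5585. The spots of the arrays did not overlap. The mean signals, taken on the log2 scale, were 1206 and 5660, 5.08-fold higher in the HSD group, and the log2 fold change was 2.34 ± 0.028 (SE over spots, for 1 array of each diet). Only 24 of the 15209 genes measured on both arrays had a larger one. None of the other mesenchymal markers of the described list had a difference of this size. Tagln, which encodes the actin-binding protein transgelin and is usually expressed with Acta2, had 169.7 and 139.3 (log2 fold change −0.17). Pdgfrb, the PDGF receptor of pericytes and fibroblasts, had 26.1 and 36.4, 1.51-fold higher. Pdgfra, the PDGF receptor that marks fibroblasts, was printed in 10 spots on each array, and after 1 outlier was left out on each the spots ran from 0.937 to 1.21 in the NSD group and from 0.925 to 2.32 in the HSD group, none of them well above background. The promoter of Acta2 is shown because it holds near matches to the CArG box, the site of serum response factor that is a textbook feature of smooth muscle genes. It lies on the minus strand of GRCm38.p6, chr19:34255374-34255623, as the 250 bases before the RefSeq start, with capitals marking CArG boxes in which 1 base of the A/T core is another base.
Acta2: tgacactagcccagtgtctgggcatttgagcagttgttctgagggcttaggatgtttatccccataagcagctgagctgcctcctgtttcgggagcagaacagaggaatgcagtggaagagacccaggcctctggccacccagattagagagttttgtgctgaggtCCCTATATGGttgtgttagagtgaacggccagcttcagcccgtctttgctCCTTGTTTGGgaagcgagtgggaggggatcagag

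**Figure D3:**
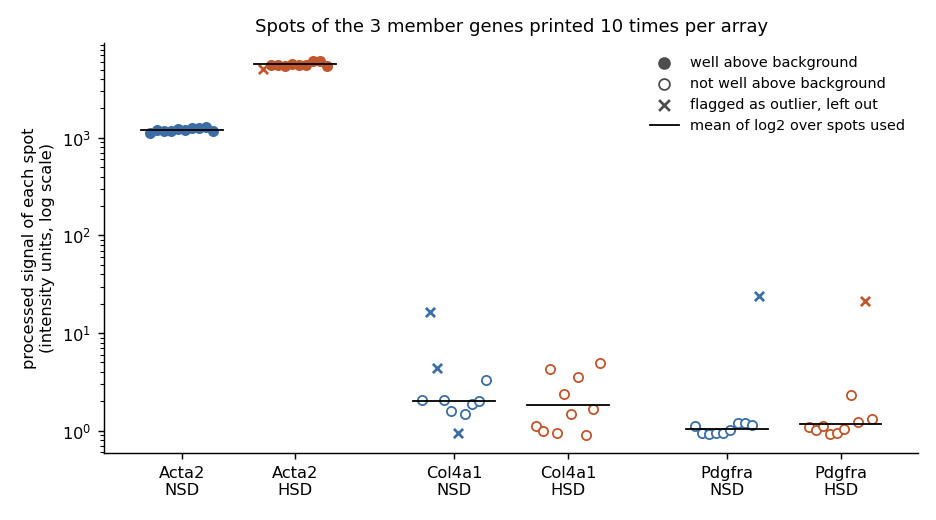
Processed signal of every spot in intensity units on a log axis for Acta2, Col4a1 and Pdgfra, each printed 10 times on each array. Filled circles were well above background, open circles were not, crosses are spots left out as outliers, and black lines are means of the log2 signal over the spots used. The Acta2 spots lie between 1114 and 1277 in the NSD group and between 5417 and 6063 in the HSD group, and the spots used for Col4a1 and Pdgfra stay under 5.

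RefSeq promoter windows were found for 20 of the 33 genes and searched on both strands over the 250 bases before each start. The strict CArG box was found for 0 of the 20 genes and in 1.47% of all 32851 promoter windows, and the box with up to 1 other core base, which includes the strict one, for 3 genes (Acta2, Col1a2 and Col6a3) and in 8.59% of windows. GGGCGG was found for 10 genes and in 32.7% of windows, CCAAT for 6 genes and in 33.8%, and TATAAA for 3 genes and in 12.4%. The tonicity-responsive enhancer, the site of NFAT5, was found for 1 gene, Postn, which was not detected, and in 4.31% of windows. These matches describe letters in a window. None of the motifs searched was common to Col5a1, Col16a1 and Acta2, the genes with the largest differences.

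The size of most differences changed in an alternative that used the median spot signal, limma's normexp background correction and an offset of 50 together. It kept 3 genes past 1.5-fold, all higher in the HSD group. These were Acta2, with a log2 fold change of 2.33, Col5a1 with 2.18 and Col16a1 with 1.87. The Col16a1 value is that of its brightest probe, and its other probes did not pass 1.5-fold in this alternative. The other 8 genes past 1.5-fold kept their direction and ended between −0.44 for Fstl1 and 0.38 for Lox. Among them Mgp came to −0.15, Col3a1 to −0.051 and Dcn to −0.032. In the authors' deposited log2 values, which were normalized separately, 4 genes were higher and 5 lower, and Col4a2 (0.52) and Pdgfrb (0.58) were just under 1.5-fold.

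**Figure D4:**
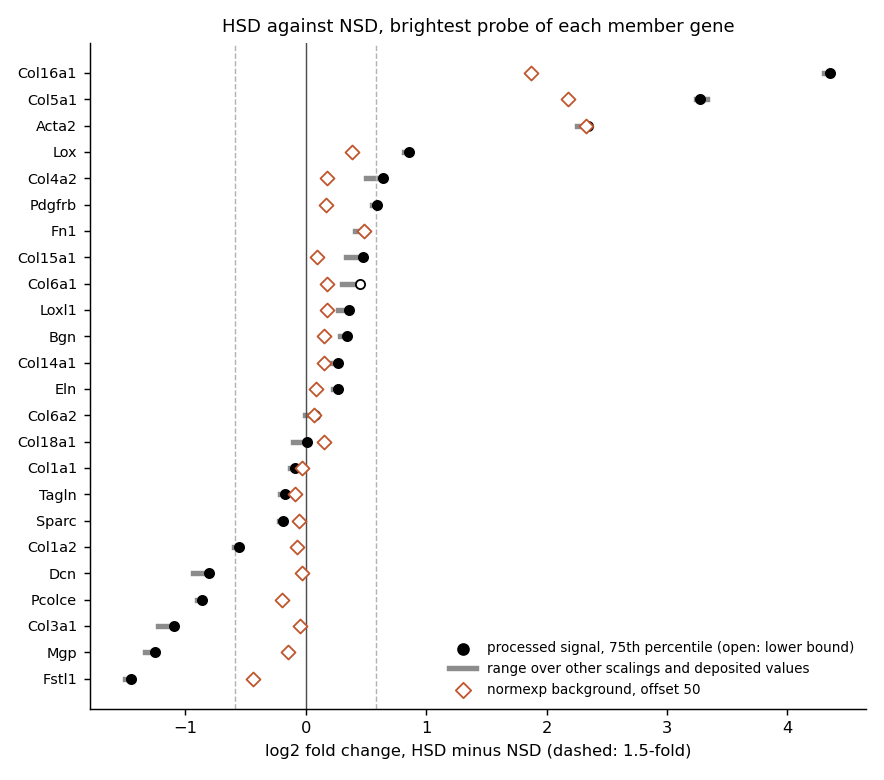
Log2 fold change of the HSD over the NSD array for the 24 genes with a fold change, by the brightest probe. Black points are the processed signal scaled on the 75th percentile, with an open point for the lower bound of Col6a1, grey bars give the range over the other scalings and the deposited values, diamonds are normexp values, and dashed lines mark 1.5-fold. Only Col16a1, Col5a1 and Acta2 stay beyond the dashed lines in every setting drawn.

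Many other collagen genes were undetected. Of 29 such genes, 14 were undetected on both arrays and 15 had a fold change. Of all 20653 named genes, 4321 were undetected on both arrays. Of the 15 other collagen genes with a fold change, 3 were higher and 2 lower by at least 1.5-fold, with a median log2 fold change of 0.25. Among all genes with a fold change, 9.86% were higher and 10.3% lower. Col6a4, a further chain related to type VI collagen, had signals of 5.57 (NSD) and 10.7 (HSD) (log2 fold change 1.05). Col5a3, the third type V chain, had 11.4 and 17.2 (0.71) and Col25a1, a membrane-bound collagen, 22.5 and 32.0 (0.62). Col20a1 had 91.4 and 43.2 and was 1.95-fold lower in the HSD group. The second lower gene, Col8a2, had 19.5 (NSD) and was undetected on the HSD array, at least 4.11-fold lower, and is named after its value was seen.

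Enzymes and chaperones of collagen synthesis work in the endoplasmic reticulum or on the secreted chains, and 22 of 27 were well above background on both arrays. Of 23 with a fold change, 0 were higher and 5 lower by at least 1.5-fold, against 9.86% and 10.3% of all genes. Their median log2 fold change was −0.080. Loxl3, a lysyl oxidase, had 19.8 and 5.91 (log2 fold change −1.63) and P3h3, a prolyl 3-hydroxylase, 14.6 and 4.98 (−1.44). Crtap, a partner of prolyl 3-hydroxylase, had 227.3 and 109.4 (−0.94). Serpinh1, the collagen chaperone HSP47, had 28.4 and 17.3 (−0.60) and Ppib, cyclophilin B, 6189 and 3806 (−0.59), both close to 1.5-fold. By sign, 9 of the 23 were above 0 and 14 below. A link of these enzymes and chaperones to the Col5a1 and Col16a1 values was not tested.

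Of 31 other matrix glycoproteins and proteoglycans with a fold change, 4 were higher and 5 lower by at least 1.5-fold. The shares of all genes were 9.86% and 10.3%. The median log2 fold change of these 31 was −0.037. Thbs1, which encodes thrombospondin-1, had the lowest log2 fold change of them (−2.80), with signals of 600.2 (NSD) and 79.7 (HSD). Sparcl1, a relative of Sparc, had 16.1 and 7.59 (−0.97) and Agrn, the proteoglycan agrin, 1472 and 720 (−0.92). Fbln2 (fibulin-2) had 20.2 and 31.7 (0.77) and Vcan, the proteoglycan versican of monocytes and stroma, 373.8 and 550 (0.67). The other higher genes, named after their values were seen, were undetected on the NSD array. They were Aspn, the small leucine-rich proteoglycan asporin, with 14.7 on the HSD array (at least 3.46-fold higher), and Fbln1 (fibulin-1) with 9.79 (a lower bound of 1.20 on the log2 scale). Tgfbi, a collagen-binding protein abundant in macrophages, had 10974 and 9100 (−0.16).

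TGF-β is the main inducer of collagen and of Acta2 in fibroblasts. All 14 genes of its pathway on the list were well above background on both arrays, with a median log2 fold change of 0.13. By at least 1.5-fold, 0 were higher and 1 lower, against 9.86% and 10.3% of all genes. The lower one was Ccn2, a TGF-β target also called connective tissue growth factor, with signals of 12.8 and 6.92 (log2 fold change −0.77). Tgfb1 itself had 128.1 and 136.4 (0.21). Of 11 matrix receptor genes with a fold change, 0 were higher and 1, Itgb5, was lower, with 604.3 and 189.6 (−1.56). Their median was 0.25.

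**Figure D5:**
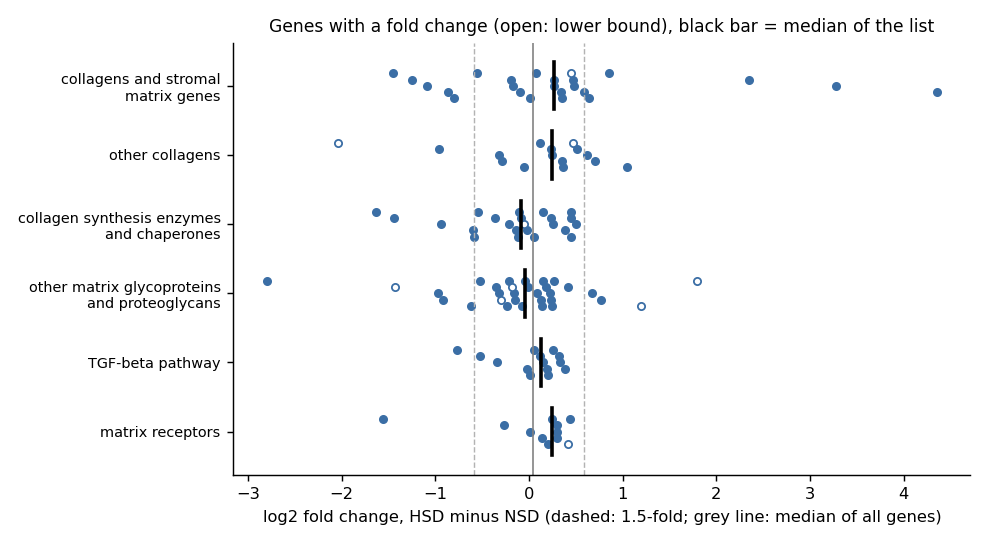
Log2 fold change of the HSD over the NSD array for every gene with a fold change in the described list and in 5 further lists, by the brightest probe. Open points are lower bounds, black bars are list medians, the grey line is the median of all genes (0.045) and dashed lines mark 1.5-fold. Col5a1, Col16a1 and Acta2 stand apart on the right, and Thbs1 has the lowest value.

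Markers of the cells that could carry matrix transcripts into the isolated fraction were examined beside these values. For all counts of higher and lower markers, the shares of all genes were 9.86% and 10.3%. Of 15 fibroblast markers, 6 were undetected on both arrays (Pdgfra, Lum, Prrx1, Twist1, Twist2 and Cdh11). Among the 10 fibroblast markers outside the described list, 6 had a fold change. Of these 6, 0 were higher and 2 lower, Fap with 58.7 and 21.4 (log2 fold change −1.34) and Pdpn with 132.3 and 66.0 (−0.89). The other 4 with a fold change (S100a4, Thy1, Tcf21 and Vim) had positive values of 0.32 or less, and the median of the 6 was 0.15. The part of fibroblasts in the lower values of Col3a1, Dcn, Mgp, Fstl1 and Pcolce was not tested. The summed scaled signal of these 10 markers, in multiples of the 75th percentile and mostly from Vim and S100a4, was 108.2 (NSD) and 116.7 (HSD). Vim alone had signals of 23072 and 22445, while 6 of the 15 fibroblast markers were undetected. The sum can therefore not be read as fibroblast content.

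Of the 9 markers of pericytes and smooth muscle outside the described list, Rgs5, Des and Abcc9 were undetected on both arrays. Of the 6 with a fold change, 2 were higher in the HSD group. These were Myh11 with signals of 6.97 and 10.4 (log2 fold change 0.69) and Notch3, undetected on the NSD array and at least 2.17-fold higher. Cnn1 was at least 1.61-fold lower, and the summed scaled signal was 18.6 and 12.5, mostly from Mcam. Kcnj8, Cspg4 and Mcam were detected on both arrays and had negative log2 fold changes, with −0.34, −0.44 and −0.58. These markers thus went different ways beside the higher Acta2 signal, and the part of pericytes and smooth muscle in it was not tested.

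Of 7 platelet markers 0 were higher with salt and 4 lower, against 9.86% and 10.3% of all genes. Their summed scaled signal was 5.77 and 1.32. Platelets store thrombospondin-1 and SPARC protein, and the part of platelets in the Thbs1 and Sparc values was not tested. Of 9 macrophage markers 0 were higher and 6 lower, and the ratio of the HSD to the NSD sum was 0.654. Of 9 carcinoma markers with a fold change 3 were higher, Krt18, Epcam and Krt8, and the sums over all 10 were 0.952 and 0.951. Of 8 endothelial markers with a fold change 0 reached 1.5-fold, and the sums over all 10 were 2.20 and 2.41. The part of these cells in the differences of the matrix genes was not tested.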

How the data were processed

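M-MDSC RNA, 1 pool per diet, was hybridized with Cy3 to 1-colour Agilent Mouse GE v2 arrays. The authors deposited Feature Extraction 11.0.1.1 output. The processed signal in it is a deposited intensity from which the software had removed background and spatial trends, not yet normalized across arrays, and the median spot and background brightness, also a deposited intensity, served only for the normexp alternative. The authors also deposited log2 values normalized in GeneSpring, whose method is not given in the sources used here. These were used as an alternative.

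Controls and spots that the software marked as outliers (non-uniform, or far from the other spots of their probe) were left out, log2 signals were averaged over the spots of a probe, and the 75th percentile over non-control probes was subtracted per array. With several spots, at least 50% of them had to be well above background for the probe to count as detected. Where 1 array was not, the fold change is a lower bound against the higher of the probe's signal there and the lowest signal well above background. Where neither was, no fold change was given. Transcript identifiers were matched without versions to RefSeq on GRCm38.p6, giving names to 27223 of 39413 probes (69.1%). The array was designed on an older assembly, so no probe coordinates are given. In counts of genes, each gene is represented by its probe of highest mean log2 signal. Promoters are RefSeq windows of GRCm38.p6. All listed genes are named, and of each further list up to 3 rises and 3 falls of at least 1.5-fold measured on both arrays, with others named after their values were seen. The genes and lists were chosen with earlier results of these data known. No test was run, since each diet had 1 array, and that number limits the precision. Calling was tested on simulated data with the same noise for every probe and changes only in probes detected on both arrays. This does not cover the larger noise of dim probes or the lower bounds. Alternatives were other background correction, scaling, filters, flags, a 2-fold threshold and the median over probes. Python 3.11.15, numpy 2.4.6, pandas 2.3.3, matplotlib 3.10.9, R 4.3.3 and limma 3.58.1 were used.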

Additional observations from a re-analysis of the deposited data

How the results depend on the processing

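At 1.5-fold, 6 genes were higher and 5 lower (8 and 6 probes), with a median log2 fold change of 0.27. The normexp alternative, on the median spot signal, gave 3 higher and 0 lower genes, 3 higher and 0 lower probes and a median of 0.12. Its offset of 50 is added to every signal, which by construction shrinks the fold changes of signals below or near that value. Cyclic loess gave 5 higher probes, as did the deposited log2 values, and the cause was not tested. A 2-fold threshold, which is stricter by construction, left 3 higher and 3 lower genes and 3 higher and 3 lower probes, where 2.62% of all genes were higher and 4.17% lower. The other counts stayed within 1.5 times and the other medians within the SD between spots. Of 144 values of single genes under other background corrections, scalings and the deposited values, 123 moved by less than the SD between spots at their signal and 21 by more, and 0 of those past 1.5-fold changed direction. No paired analysis was possible because each diet has 1 array. Low signal limited the list, since 12 of 41 probes were not well above background on either array. Such probes were also common beyond the list, as 29628 of all 39413 probes were well above background on at least 1 array.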
